A study of Rattus norvegicus with 23 samples.

Results

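The genes of the proteasome were followed in 2 rat kidney cell lines kept in neutral or acidic medium. The members were the protein-coding genes of the count table whose symbol is Psma, Psmb, Psmc, Psmd, Psme, Psmf or Psmg followed by a number, without Psmb8, Psmb9 and Psmb10, which gave 42 of 30452 genes. NRK-52E (NRKE in the labels) is a normal rat kidney line labelled epithelial, and NRK-49F (NRKF) is one labelled fibroblast. Each line was held without serum for 24 h and then for 48 h at pH 7.4 or at pH 6.0, the latter set with HCl, and poly(A)-selected RNA was sequenced. There were 6 samples of NRK-52E at pH 7.4, 6 of NRK-52E at pH 6.0, 6 of NRK-49F at pH 7.4 and 5 of NRK-49F at pH 6.0. Each line and pH came from 2 sample groups, groups 1 and 3 for NRK-52E and groups 4 and 6 for NRK-49F, and the labels do not say what a sample group is. Both lines are permanent cultures on plastic, so a line stands for 1 established culture and not for a tissue.

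The proteasome is the large protease that degrades proteins tagged with ubiquitin. Its core particle is a barrel of alpha rings, which gate the entry, around beta rings, which carry the proteolytic sites. The regulatory particle caps the barrel: its base holds a ring of ATPases that unfold the substrate, and its lid removes the ubiquitin chain. Activators such as PSME1 with PSME2 can cap the core in place of the regulatory particle, and dedicated chaperones build each part. The transcription factor NFE2L1, and under oxidative stress NFE2L2, drive proteasome genes through antioxidant response elements, and NFE2L1 is held in the membrane of the endoplasmic reticulum until it is extracted and cut.

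For 41 of the members every sample held between 292 and 16134 reads. The remaining member, Psma8, which encodes a testis type alpha subunit, had 0 to 3 reads per sample and was not tested. No gene of the count table carried the symbol Psmb11, Psmd9 or Psmd10, so these were not analysed. Psmd5 was thus the only base assembly factor among the members. Total counts ranged from 16412564 to 34250535 per sample. The members together took 0.444% to 0.768% of the counts of a sample. Levels are given as FPM, fragments per 1000000 of the library size after TMM scaling, as mean ± SD. They are not divided by gene length, so levels of different genes were not compared with each other. Since these are bulk samples, a change in RNA per cell and a change in the mix of cells cannot be told apart.

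The labels of the cell lines were checked against markers. Of 6 epithelial markers, Cdh1, Epcam, Krt18 and Cldn4 were at or near 0 in all samples of both lines, Krt8 was higher in NRK-49F (839 ± 193 FPM at pH 7.4, n = 6) than in NRK-52E (499 ± 76.4, n = 6), and Krt7 alone was higher in NRK-52E. Among the fibroblast markers Pdgfra (306 ± 48.5 FPM in NRK-49F and 1.83 ± 1.54 in NRK-52E at pH 7.4, n = 6 each), Vcam1, Col1a1, Col1a2 and Twist1 were higher in NRK-49F, Col3a1 was higher in NRK-52E, and Thy1 was at or near 0 in both. The lines were thus distinct, but Cdh1, Epcam, Krt18 and Cldn4 did not mark NRK-52E as epithelial. The NRK-52E sample A021 at pH 7.4 held 52.9 FPM of Col1a2, against 0.0546 to 15.4 FPM in the other NRK-52E samples and 2930 to 4887 FPM in NRK-49F.

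3 libraries had the highest summed level of the members in their groups. Sample A035 of NRK-52E at pH 7.4 had 6469 FPM over all members, against 4353 to 5249 in the other 5. Sample A052 of NRK-49F at pH 7.4 had 6574 FPM, against 4517 to 5688 in the others, and sample A042 of NRK-49F at pH 6.0 had 7223 FPM, against 4645 to 6289. The same 3 libraries had the highest summed level of 78 ribosomal protein genes in their groups, 99364 FPM in A035 (59094 to 68520 in the others), 116128 FPM in A052 (69139 to 101352) and 146455 FPM in A042 (72554 to 110643). In NRK-52E at pH 6.0 the highest ribosomal protein sum was in A026 (82443 FPM) and the highest sum of members in A038 (7516 FPM, others 5537 to 6668). A038 was not counted among the 3 libraries, although it too lay above its group in the sum of members. The part of this shared library factor in the results was not tested as a cause, and counts without the 3 libraries are given beside those with them.

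**Figure D1:**
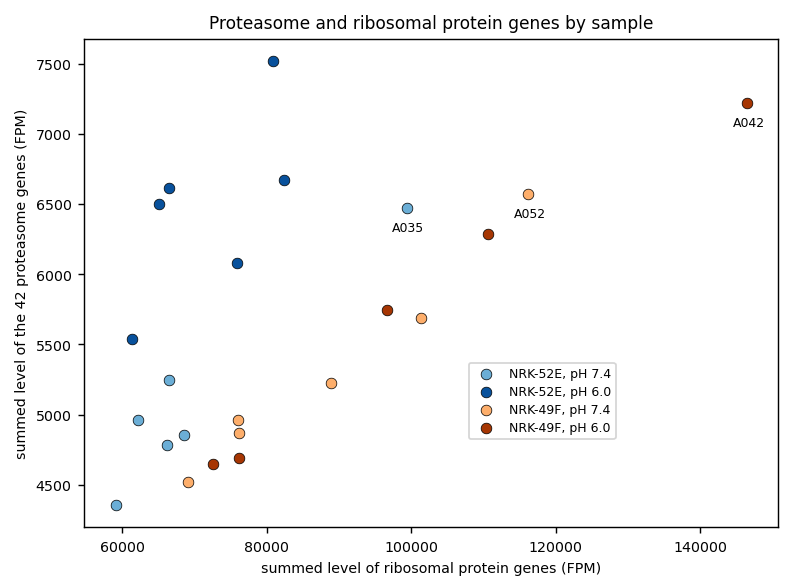
Summed level of the 42 proteasome genes (y axis, FPM) against the summed level of 78 ribosomal protein genes (x axis, FPM), 1 point per sample, coloured by cell line and pH. Samples A035, A052 and A042 lie to the right of the other samples of their groups, and the NRK-52E samples at pH 6.0 lie above those at pH 7.4 of similar ribosomal protein level.

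The promoters are shown first, because proteasome genes are known to be regulated together and motifs shared by the members could be counted without use of the expression values. Of the 42 members, 38 matched a RefSeq promoter of the GRCr8 assembly, taken as 250 bases before to 50 bases after the transcript start, and Psma7, Psmd12, Psmd14 and Psmd6 did not. A GC box (GGGCGG, bound by SP1) was found on either strand in 29 of the 38 promoters, 76.3%, against 34.9% of all 27457 promoters of this length. The ETS motif CCGGAAG was in 15, 39.5%, against 9.22%, and the CCAAT box, bound by NF-Y, in 17, 44.7%, against 37.7%. The antioxidant response element core TGACNNNGC was in 7, 18.4%, against 12.2%, namely Psma3, Psmb2, Psmb5, Psmb6, Psmd1, Psmd3 and Psme4. The C/EBP-ATF response element TGATGNAA was in 2 (5.26% against 3.82%) and the cAMP response element TGACGTCA in 1 (2.63% against 1.91%). These are letter matches and not binding sites. The 27457 promoters were not selected by gene type or expression, so the shares are not shown to be particular to proteasome genes.

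The promoters printed below are those of the members named by rule that hold the antioxidant response element core, with its letters in capitals on whichever strand they lie. Psmd3 was added after its values were seen, as the member with such a core that rose most.
Psmb6 (chr10:55737638-55737937, + strand): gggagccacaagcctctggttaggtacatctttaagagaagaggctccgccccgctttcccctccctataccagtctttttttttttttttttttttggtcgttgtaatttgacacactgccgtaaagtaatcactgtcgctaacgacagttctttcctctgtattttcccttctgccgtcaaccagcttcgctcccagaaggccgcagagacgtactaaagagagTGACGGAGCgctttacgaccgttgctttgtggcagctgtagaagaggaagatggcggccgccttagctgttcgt
Psmb5 (chr15:32047330-32047629, - strand): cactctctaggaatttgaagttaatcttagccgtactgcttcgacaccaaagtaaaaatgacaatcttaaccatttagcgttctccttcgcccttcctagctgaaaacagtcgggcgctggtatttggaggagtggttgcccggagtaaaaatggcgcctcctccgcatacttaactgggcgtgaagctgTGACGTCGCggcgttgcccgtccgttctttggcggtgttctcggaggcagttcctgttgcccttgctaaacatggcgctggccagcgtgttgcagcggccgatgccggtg
Psma3 (chr6:95219499-95219798, + strand): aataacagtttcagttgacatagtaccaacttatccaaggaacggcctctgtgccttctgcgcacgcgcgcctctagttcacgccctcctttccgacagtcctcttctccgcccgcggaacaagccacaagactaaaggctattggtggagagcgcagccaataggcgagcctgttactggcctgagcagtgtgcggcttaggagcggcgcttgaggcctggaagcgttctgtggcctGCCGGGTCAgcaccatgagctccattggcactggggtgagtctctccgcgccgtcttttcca
Psme4 (chr14:108706393-108706692, + strand): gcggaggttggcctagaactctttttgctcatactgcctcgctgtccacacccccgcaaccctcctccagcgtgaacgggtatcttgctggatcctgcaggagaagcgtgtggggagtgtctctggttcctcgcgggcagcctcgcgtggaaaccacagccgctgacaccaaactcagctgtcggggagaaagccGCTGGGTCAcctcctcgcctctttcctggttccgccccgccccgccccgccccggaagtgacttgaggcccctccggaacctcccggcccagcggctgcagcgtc
Psmd3 (chr10:84139688-84139987, + strand): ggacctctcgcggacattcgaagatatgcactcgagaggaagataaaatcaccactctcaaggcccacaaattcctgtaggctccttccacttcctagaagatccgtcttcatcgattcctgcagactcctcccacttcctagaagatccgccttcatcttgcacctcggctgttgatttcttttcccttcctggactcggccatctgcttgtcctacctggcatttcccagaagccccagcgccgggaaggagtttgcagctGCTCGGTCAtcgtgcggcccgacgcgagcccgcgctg
The core lay between positions −60 and 21 relative to the start in these 5 promoters, on the strand of the gene in Psmb6 and Psmb5 and on the other strand in Psma3, Psme4 and Psmd3.

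The promoter of Psmd8, the member that rose most in NRK-52E, was also added after its values were seen. It held no antioxidant response element core, and its GC box is in capitals.
Psmd8 (chr1:93608640-93608939, - strand): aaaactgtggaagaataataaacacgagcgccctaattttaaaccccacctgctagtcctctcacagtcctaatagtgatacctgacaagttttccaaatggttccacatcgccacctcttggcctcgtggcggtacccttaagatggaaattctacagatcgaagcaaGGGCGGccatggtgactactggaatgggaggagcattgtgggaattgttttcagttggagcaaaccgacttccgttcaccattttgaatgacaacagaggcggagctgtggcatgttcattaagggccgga
Of the 17 members that rose in NRK-52E at pH 6.0, all of which had a promoter, 2 held the antioxidant response element core (Psmb6 and Psmd3). Of the other 20 tested members with a promoter 5 held it. Both sets thus held members with and without the core.

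The first comparison asked how NRK-52E cells changed at pH 6.0. 17 of the 41 tested members were higher, 1 was lower and 23 did not pass the test (edgeR quasi-likelihood test, Benjamini-Hochberg adjusted p under 0.05 over all 14777 genes). Among all genes tested 24.7% were higher and 36.6% lower, while of the members 41.5% were higher and 2.44% lower. The median log2 fold change of the members was 0.26, against −0.12 over all genes, and single members ranged from −0.80 to 1.19. The pH groups did not overlap for 8 members that were higher and 1 that was lower, which compares with 15.4% and 23.2% of all genes. Members that rose were found in each part of the complex, with 5 of 8 in the lid. The summed level of the members was 5110 ± 726 FPM at pH 7.4 and 6486 ± 659 FPM at pH 6.0 (n = 6 each), with overlap, since A035 at pH 7.4 exceeded 2 of the samples at pH 6.0.

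The line markers also moved with pH in NRK-52E. All 7 tested fibroblast markers fell at pH 6.0, and their summed level, most of it Col3a1 (6149 ± 1378 FPM at pH 7.4 and 2402 ± 645 FPM at pH 6.0, n = 6 each), was 4901 to 8102 FPM at pH 7.4 and 1830 to 3110 FPM at pH 6.0. Pdgfra went from 1.83 ± 1.54 to 0.0263 ± 0.0439 FPM, Vcam1 from 1.202 ± 1.42 to 0.0234 ± 0.0378 FPM and Col1a2 from 13.5 ± 20.3 to 0.347 ± 0.201 FPM. Both tested epithelial markers fell too, Krt8 to 222 ± 26.7 FPM (log2 −1.17 ± 0.14 SE) and Krt7 from 21.8 ± 6.04 to 4.04 ± 1.01 FPM, with a summed level of the list of 463 to 683 FPM at pH 7.4 and 199 to 265 FPM at pH 6.0. In NRK-49F, 2 of 7 fibroblast markers, Pdgfrb and Col3a1, and both epithelial markers fell, with sums of 10503 to 13509 and 7341 to 9813 FPM (fibroblast) and 668 to 1207 and 438 to 697 FPM (epithelial). The part of these shifts in the values of the proteasome genes was not tested.

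**Figure D2:**
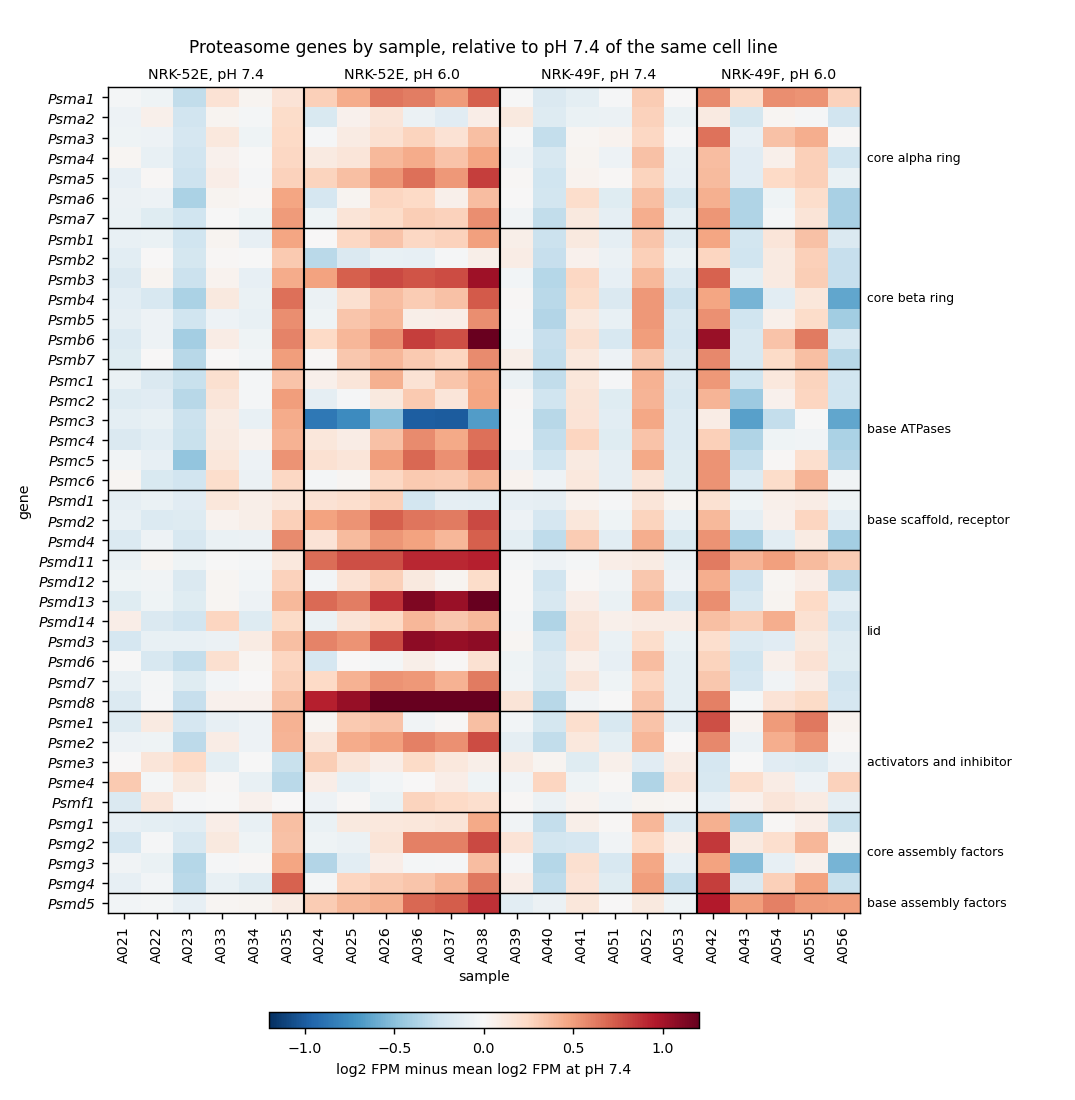
Heat map of the 41 tested members (rows, ordered by part of the complex) in the 23 samples (columns, by cell line and pH), as log2 FPM minus the mean log2 FPM of the same line at pH 7.4. In NRK-52E at pH 6.0, Psmd8, Psmd13, Psmd3, Psmd11 and Psmb3 are red in all 6 samples and Psmc3 is blue in all 6, while columns A035, A052 and A042 are red over most rows.

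The lid gave the largest changes, with a median log2 change of 0.64. Of its 8 members 5 rose (62.5%, against 24.7% of all genes). None fell (0 also at an unadjusted p under 0.05 in edgeR and at an adjusted p under 0.05 in DESeq2), against 36.6% of all genes. Psmd8, a lid subunit that is added late in lid assembly, was at 109 to 170 FPM with a median of 134 in NRK-52E at pH 7.4 and at 253 to 368 FPM with a median of 311 at pH 6.0. The lowest sample at pH 6.0 was above the highest at pH 7.4, and the fitted change was 2.29-fold (log2 1.19 ± 0.13 SE, adjusted p = 3.7e-08). The other 4 were named after their values were seen. Psmd13 rose 1.91-fold, from 92.7 ± 14.1 to 177 ± 30.5 FPM (n = 6 each), Psmd3 1.81-fold, from 115 ± 17.1 to 208 ± 34.5 FPM, and Psmd11, which clamps the lid to the core, 1.77-fold, from 122 ± 6.26 to 217 ± 15.4 FPM. None of these 3 overlapped between the pH values. Psmd7, the partner of the deubiquitinase in the lid, rose 1.37-fold (105.4 ± 11.5 to 145 ± 13.3 FPM) with overlap. Psmd14, the deubiquitinase itself, was at 47.6 ± 7.15 FPM at pH 7.4 and 56.1 ± 6.67 FPM at pH 6.0 and did not pass (log2 0.23 ± 0.12 SE, adjusted p = 0.084). Psmd12 (log2 0.13 ± 0.11) and Psmd6 (log2 0.00 ± 0.11) did not pass either. The sum over the lid was 806 ± 93.7 FPM at pH 7.4 and 1306 ± 144 FPM at pH 6.0.

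**Figure D3:**
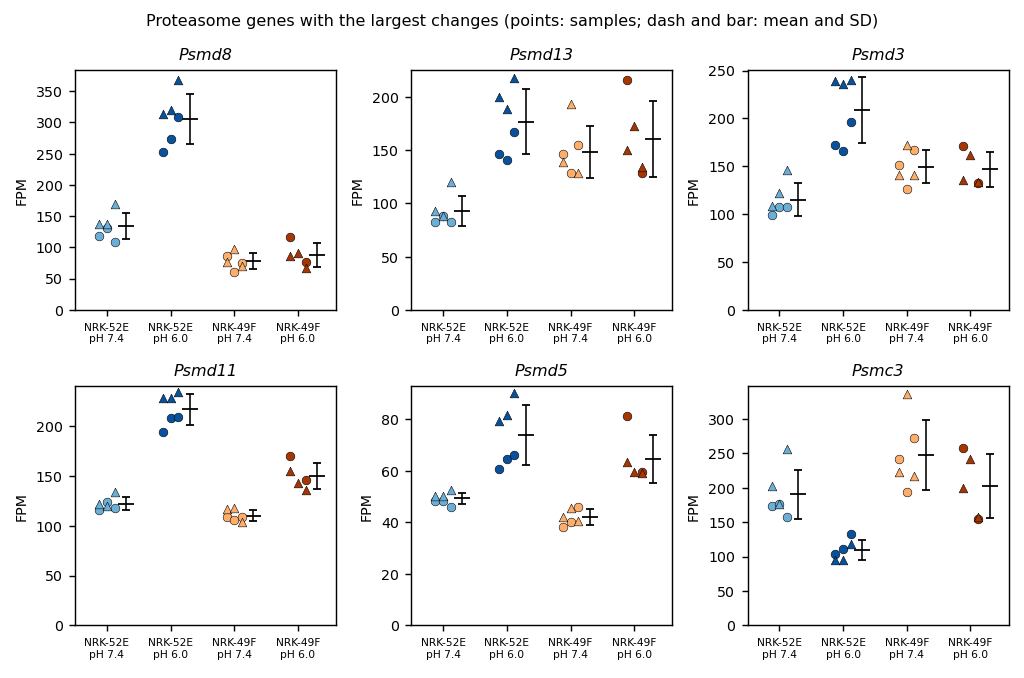
Level (FPM, y axis from 0) of Psmd8, Psmd13, Psmd3, Psmd11, Psmd5 and Psmc3 in each sample by cell line and pH. Circles are the lower and triangles the higher numbered sample group of each line, and dashes with bars are the mean and SD. In NRK-52E the pH groups do not overlap for any of the 6 genes, and in NRK-49F they do not overlap for Psmd11 and Psmd5.

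In the base, 2 of 6 ATPases rose and 1 fell (33.3% and 16.7%, against 24.7% and 36.6% of all genes). Psmc3, one of the ATPases that dock into the alpha ring, was the only member that fell in NRK-52E. It was at 157 to 257 FPM with a median of 177 at pH 7.4 and at 94.3 to 133 FPM with a median of 108 at pH 6.0, a fall to 0.574-fold (log2 −0.80 ± 0.15 SE, adjusted p = 5.2e-05), and the groups did not overlap. Psmc5 rose 1.37-fold (49.2 to 99.7 FPM with a median of 66.2 at pH 7.4, 75.6 to 117 FPM with a median of 98.5 at pH 6.0, adjusted p = 0.019). The Psmc5 groups overlapped, and without sample A023 at pH 7.4 the call was lost, with a log2 change of 0.37 as against 0.46. Psmc4, named after its values were seen, rose 1.30-fold (log2 0.37 ± 0.14 SE). The other 3 ATPases, Psmc1, Psmc2 and Psmc6, had log2 changes of 0.26, 0.14 and 0.21 and did not pass.

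Of the other base subunits, 2 of 3 rose (66.7%, against 24.7% of all genes). Psmd2, the scaffold that receives shuttle proteins and ubiquitin, was at 255 to 348 FPM with a median of 281 at pH 7.4 and at 398 to 494 FPM with a median of 441 at pH 6.0. The groups did not overlap and the change was 1.55-fold (log2 0.63 ± 0.10 SE, adjusted p = 9.8e-06). The ubiquitin receptor Psmd4 rose 1.35-fold (log2 0.43 ± 0.16 SE), and the second scaffold Psmd1 was at 152 ± 12.8 and 157 ± 22.5 FPM and did not pass.

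The core particle had 5 rises among 14 tested members, 3 of 7 in the alpha ring (42.9%) and 2 of 7 in the beta ring (28.6%). Among all genes 24.7% rose. Psma1, an alpha subunit, was at 101 to 140 FPM (median 124.5) at pH 7.4 and at 151 to 204 FPM (median 183) at pH 6.0, a 1.45-fold rise (adjusted p = 4.0e-05) without overlap. Psma5 (1.44-fold) and Psma4 (1.25-fold) also rose, both named after their values were seen. Psmb3, a beta subunit without a proteolytic site, was at 126 to 206 FPM (median 148) at pH 7.4 and 212 to 306 FPM (median 258) at pH 6.0, a 1.68-fold rise (adjusted p = 1.4e-04) without overlap.

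Of the 3 subunits that carry the proteolytic sites, Psmb6 (caspase-like site) rose and Psmb5 (chymotrypsin-like) and Psmb7 (trypsin-like) did not pass. Psmb6 was at 67.6 to 136 FPM (median 86.2) at pH 7.4 and 106 to 204 FPM (median 142) at pH 6.0, a 1.58-fold rise (log2 0.66 ± 0.20 SE, adjusted p = 0.0068), and 3 samples at pH 6.0, A024, A025 and A026, lay below A035 at pH 7.4. Psmb5 was at 104 to 181 FPM (median 117) at pH 7.4 and 119 to 180.3 FPM (median 142) at pH 6.0 (log2 0.22 ± 0.16 SE, adjusted p = 0.24). Psmb7 was at 116 to 207 FPM (median 145) at pH 7.4 and 148 to 217 FPM (median 182) at pH 6.0 (log2 0.30 ± 0.15 SE, adjusted p = 0.081). In both of these A035 was the highest sample at pH 7.4, and without it both passed the test as higher, with log2 changes of 0.36 and 0.42. Psmb7 also passed without sample A024 at pH 6.0.

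Their interferon-induced counterparts, which replace them in the immunoproteasome of antigen processing, are outside the 42 members and all 3 rose in NRK-52E. Psmb8 was at 14.1 ± 2.58 FPM at pH 7.4 and 30.2 ± 6.93 FPM at pH 6.0 (log2 1.10 ± 0.18 SE), Psmb9 at 23.5 ± 3.89 and 51.9 ± 8.90 FPM (log2 1.15 ± 0.14 SE) and Psmb10 at 29.5 ± 8.75 and 46.3 ± 5.08 FPM (log2 0.65 ± 0.17 SE). All 3 changes passed the test (edgeR adjusted p = 1.1e-05, 2.6e-07 and 0.0022).

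**Figure D4:**
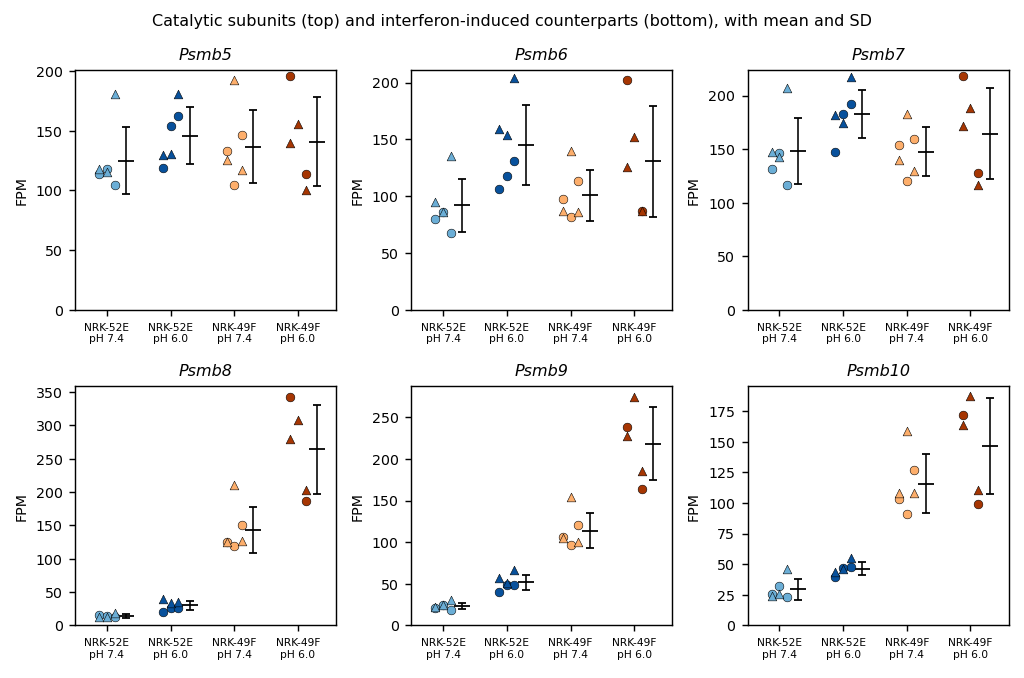
Level (FPM, y axes from 0) of the catalytic subunits Psmb5, Psmb6 and Psmb7 (top) and of their interferon-induced counterparts Psmb8, Psmb9 and Psmb10 (bottom) in each sample, by cell line and pH. Circles and triangles are the lower and higher numbered sample group of a line, and dashes with bars the mean and SD. The bottom genes are several times higher in NRK-49F than in NRK-52E, and the levels of the top genes overlap between the lines.

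Of the activators and the inhibitor, 1 of 5 rose in NRK-52E (20%, against 24.7% of all genes). Psme2, which forms the interferon-induced activator ring with Psme1, was at 90.5 to 149 FPM (median 108.5) at pH 7.4 and 125 to 194 FPM (median 161.5) at pH 6.0, a 1.41-fold rise (adjusted p = 0.0027) with overlap. Psme1 was at 265 ± 45.8 and 297 ± 38.5 FPM (log2 0.16 ± 0.14 SE), and Psme3, the nuclear activator, at 85.9 ± 10.6 and 95.5 ± 6.08 FPM (log2 0.15 ± 0.08 SE). Psme4, the large activator, was at 156 ± 22.9 and 154 ± 7.69 FPM (log2 −0.01 ± 0.10 SE), and Psmf1, the inhibitor, at 38.9 ± 2.80 and 41.6 ± 4.43 FPM (log2 0.10 ± 0.07 SE). These 4 did not pass, although Psme3 passed without sample A023 at pH 7.4 (log2 0.20).

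Among the assembly factors Psmd5, a chaperone of the base ATPases, rose 1.50-fold in NRK-52E, from 46.1 to 52.7 FPM (median 49.2) at pH 7.4 to 60.7 to 90.4 FPM (median 72.9) at pH 6.0 (log2 0.58 ± 0.10 SE, adjusted p = 1.2e-05). The groups did not overlap. Of the 4 chaperones of the core, Psmg2, which helps to form the alpha ring, passed the test narrowly, with 17.2 to 25.2 FPM (median 19.4) at pH 7.4 and 18.9 to 34.4 FPM (median 26.1) at pH 6.0 (log2 0.37 ± 0.16 SE). Its call was lost when any of 11 single samples was left out, its log2 change then ranging from 0.27 to 0.44 over all single samples. Psmg1, Psmg3 and Psmg4 had log2 changes of 0.15, −0.01 and 0.29 and did not pass.

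The response of NRK-52E was also taken within each sample group. Sample group 1 alone gave 32 higher and 1 lower member (median log2 0.42, with 29.5% of all genes higher and 31.8% lower), and sample group 3 alone, which holds A035, gave 20 higher and 1 lower (median 0.30, 29% and 31.6%). Psmd8 changed by log2 1.30 and 1.25 in the 2 groups, Psmd13 by 0.92 and 1.09, Psmd3 by 0.85 and 1.00, Psmd11 by 0.85 and 0.96 and Psmb3 by 0.88 and 0.79, all passing the test in each. Psmc3 fell by 0.46 on the log2 scale in group 1 and fell by 0.97 in group 3. Without A035, A042 and A052 together, a setting chosen after the data were seen, 34 members were higher and 1 lower, with a median log2 of 0.47, while 31.3% of all genes were higher and 33.1% lower (median −0.01). That setting kept A038, the sample at pH 6.0 with the highest sum of members. Leaving out A038 alone gave 14 higher and 1 lower (median 0.21, 23.6% and 35.1% of all genes). Leaving out A035 alone gave 25 higher and 1 lower (median 0.37, 24.9% and 36.7%). With NRK-52E filtered, scaled and fitted by itself 27 members were higher and 1 lower, against 30.5% and 31.8% of all genes, and the median was 0.35 over the members and 0.00 over all genes.

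The second comparison asked the same of NRK-49F fibroblasts. 4 of 41 members were higher at pH 6.0, none was lower and 37 did not pass, that is 9.76% higher, against 14.5% of all genes higher and 14.4% lower. The median log2 fold change of the members was 0.06, against 0.00 over all genes, and the members ranged from −0.29 to 0.62. No member was lower at an unadjusted p under 0.05 in edgeR (0 of 41) or at an adjusted p under 0.05 in DESeq2 (0 of 41). The share of members that were higher was thus not above the background of this line. The pH groups did not overlap for 2 members, both higher, against 10.4% of all genes higher and 10.2% lower. The summed level was 5306 ± 734 FPM at pH 7.4 (n = 6) and 5718 ± 1095 FPM at pH 6.0 (n = 5), with overlap. Without A035, A042 and A052 the counts were again 4 higher and 0 lower, against 12.2% and 14.1% of all genes. The absence of falls did not hold with the ribosomal protein level as a covariate, a setting added after the data were seen. That fit gave 5 higher and 9 lower members (12.2% and 22%, against 18.2% and 19.5% of all genes).

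Psmd5 was the member with the largest change in NRK-49F. It was at 38.3 to 46.0 FPM (median 41.2) at pH 7.4 and at 81.2, 59.4, 63.6, 59.7 and 59.2 FPM in the 5 samples at pH 6.0. All 5 were above the 6 samples at pH 7.4, and the change was 1.54-fold (log2 0.62 ± 0.10 SE, adjusted p = 3.9e-05). Psmd11 was at 104 to 118 FPM (median 108) at pH 7.4 and at 169, 146, 155, 143 and 135 FPM at pH 6.0, a 1.36-fold rise (log2 0.44 ± 0.07 SE, adjusted p = 2.4e-05), again without overlap. These 2 members also passed within sample group 4 (log2 0.76 for Psmd5 and 0.55 for Psmd11) and within sample group 6 (0.50 and 0.34), where no other member did. Among all genes 4.73% were higher in group 4 alone and 7.88% in group 6 alone.

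Psma1 was at 82.5 to 115 FPM (median 92.9) in NRK-49F at pH 7.4 and at 138, 108, 138, 135 and 113 FPM at pH 6.0, a 1.35-fold rise (log2 0.43 ± 0.10 SE, adjusted p = 0.0021). A single sample at pH 7.4, A052, lay among those at pH 6.0. Psme1 was at 306 to 450.0 FPM (median 337) at pH 7.4 and at 604, 365, 504, 550.4 and 364 FPM at pH 6.0, a 1.34-fold rise (log2 0.42 ± 0.14 SE, adjusted p = 0.030) with overlap. The call for Psme1 was lost without any of 7 single samples of NRK-49F, with log2 changes of 0.32 to 0.50 over all samples left out. Psma1 and Psme1 did not pass within sample group 4 or 6.

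In the remaining parts of the complex the largest changes in NRK-49F did not pass. Psmb6 was at 81.5 to 140 FPM (median 91.9) at pH 7.4 and at 202, 86.6, 125, 152 and 86.7 FPM at pH 6.0 (log2 0.38 ± 0.21 SE, adjusted p = 0.20). Psmc3 was at 193 to 336 FPM (median 232) at pH 7.4 and at 257, 155, 199, 241 and 158 FPM at pH 6.0 (log2 −0.29 ± 0.15 SE, adjusted p = 0.17). Psmd2 (log2 0.10 ± 0.11 SE) and Psmg2 (log2 0.34 ± 0.16 SE) did not pass, nor did Psmb5 (log2 0.05 ± 0.17 SE), Psmb7 (0.15 ± 0.15), Psme3 (−0.11 ± 0.08), Psme4 (0.06 ± 0.11) and Psmf1 (0.02 ± 0.08). Psme2 was at 179 ± 31.3 FPM at pH 7.4 and 221 ± 44.7 FPM at pH 6.0 (log2 0.31 ± 0.14 SE, adjusted p = 0.11), and it passed without sample A043 or without A052.

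Of the interferon-induced subunits, Psmb8 rose in NRK-49F from 143 ± 34.6 to 264 ± 67.1 FPM (log2 0.89 ± 0.18 SE, adjusted p = 5.0e-04) and Psmb9 from 114 ± 21.4 to 218 ± 43.8 FPM (log2 0.94 ± 0.14 SE, adjusted p = 2.5e-05). Psmb10 was at 116 ± 23.8 and 147 ± 39.1 FPM and did not pass (log2 0.34 ± 0.18 SE).

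**Figure D5:**
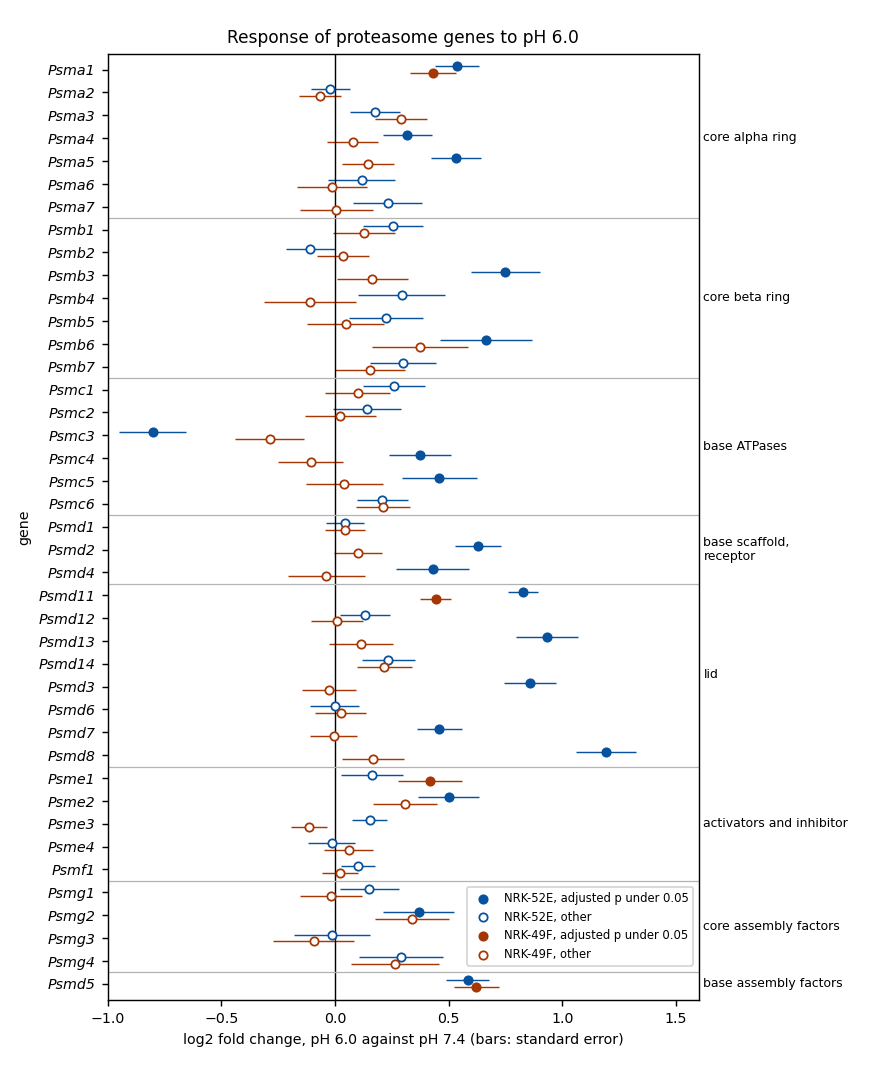
Fitted log2 fold change at pH 6.0 against pH 7.4 (x axis, bars are standard errors) of the 41 tested members (y axis, by part of the complex) in NRK-52E (blue) and NRK-49F (orange), with filled points for an adjusted p under 0.05. The lid members Psmd8, Psmd13, Psmd3 and Psmd11 lie furthest to the right in NRK-52E, Psmc3 lies furthest to the left in both lines, and Psmd5 has nearly the same value in both.

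Across both lines, Psma1, Psmd11 and Psmd5 rose in each, 14 members passed as higher in NRK-52E alone, Psme1 passed in NRK-49F alone and Psmc3 fell in NRK-52E alone. These joint classes were not counted over all genes. No member passed in opposite directions. Passing in 1 line alone does not show a difference, so the difference of both responses was tested in the same fit. 7 members responded more strongly upwards in NRK-52E (17.1%, against 16.8% of all genes), none less (against 24.7% of all genes). In that direction 1 member, Psmc3, had an unadjusted p under 0.05 in edgeR, and 0 passed in DESeq2. The share of members with a stronger response was near the background in the fit on all libraries, and it depended on the libraries. Without A035, A042 and A052, 20 members (48.8%) responded more in NRK-52E, against 22.6% of all genes. These libraries had the highest sums of members in their groups, and A038 was kept, so the setting was not independent of the values counted. Without A038 alone 7 did (17.1%, against 15.9%), and without A056 alone 6 did (14.6%, against 16.1%). With the ribosomal protein level as a covariate, also added after the data were seen, 25 did (61%, against 21.5%). In that covariate fit 9 members were lower at pH 6.0 in NRK-49F (22%, against 19.5%).

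Of the 7, 5 were lid members, and those that the naming rule did not pick were named after their values were seen. Psmd8 responded by log2 1.03 ± 0.19 SE more in NRK-52E (adjusted p = 1.3e-04), with NRK-49F at 77.9 ± 12.5 FPM in neutral and 87.3 ± 19.1 FPM in acidic medium. Psmd3 differed by 0.88 ± 0.16, Psmd13 by 0.82 ± 0.20, Psmd7 by 0.46 ± 0.14 and Psmd11 by 0.38 ± 0.09. Outside the lid, Psmb3 differed by 0.59 ± 0.22 and Psmd2 by 0.53 ± 0.15. For Psmc3 the difference was −0.51 ± 0.21 (adjusted p = 0.055), and for Psmd5 it was −0.04 ± 0.14. Without A042 alone 11 members responded more in NRK-52E (16.7% of all genes did). With sample groups 1 and 4 alone 2 members passed, against 8.11% of all genes, and with groups 3 and 6 alone 8 did, against 15.5%.

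Since the level of the whole set moved between libraries, each member was also taken relative to the median of the 41 tested members in its own sample, as a description without a test. On this scale Psmd8 was 0.89 higher (log2) at pH 6.0 in NRK-52E, Psmd13 0.62, Psmd3 0.54, Psmd11 0.52, Psmb3 0.45 and Psmd2 0.32, with no overlap between the pH groups, and Psma1, Psma5 and Psmd7 also did not overlap. Psmc3 was lower, the difference being −1.10, and Psmb2, Psma2, Psmg3, Psmd6 and Psmd12 were lower without overlap by differences of −0.41 to −0.18. Because the median of the members itself rose in NRK-52E (log2 0.26), a member without change reads as lower on this scale. In the fit these 5 had log2 changes of −0.11 to 0.13, and none passed. The scale was not computed for all genes. In NRK-49F, Psmd5 (0.53) and Psme1 (0.31) were higher without overlap, and Psmc3 (−0.38) and Psmc4 (−0.20) lower. On this untested scale Psmc3 was therefore lower relative to the other members in the samples of both lines. In the fit Psmc3 did not pass in NRK-49F (log2 −0.29 ± 0.15 SE, edgeR adjusted p = 0.17). Its FPM values there overlapped between the pH groups.

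The third comparison was between the lines. At pH 7.4, 12 members were higher in NRK-52E (29.3%, against 35% of all genes) and 11 were lower (26.8%, against 33.9%). At pH 6.0, 15 were higher (36.6%, against 36.6% of all genes) and 7 were lower (17.1%, against 38.9%). At both pH values 6 of 7 tested members of the alpha ring were higher in NRK-52E, all but Psma6, with a median log2 difference of 0.38 at pH 7.4 and 0.56 at pH 6.0. Without A035, A042 and A052 the members at pH 7.4 were split into 7 higher and 17 lower, and sample groups 1 and 4 alone gave 5 and 10, against 29.9% and 39.5% of all genes in the former setting and 30.7% and 30.5% in the latter. Sample groups 3 and 6 alone gave 8 higher and 6 lower (29.3% and 29.8% of all genes), and the ribosomal protein covariate gave 21 and 10 (36.5% and 35.1%). The split between the directions at pH 7.4 thus differed with the libraries and the covariate. At pH 6.0, 19 were higher and 6 lower without the 3 libraries (37.2% and 38.8% of all genes). Sample groups 1 and 4 alone gave 10 and 8 there (30.6% and 34.7% of all genes). Groups 3 and 6 alone gave 17 and 2 (33.8% and 37.4%), and the covariate gave 28 and 4 (37.6% and 39%). The split at pH 6.0 thus also differed with the libraries and the covariate.

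At pH 7.4 the members furthest above NRK-49F were Psmd8 (log2 0.78 ± 0.13 SE), the alpha subunit Psma3 (163 ± 17.7 against 96.7 ± 11.2 FPM, log2 0.75 ± 0.11) and the ATPase Psmc1 (171 ± 28.1 against 116 ± 21.02 FPM, log2 0.57 ± 0.13). Those furthest below were Psmc5 (70.1 ± 16.8 against 130 ± 24.3 FPM, log2 −0.89 ± 0.16), Psmd13 (92.7 ± 14.1 against 148 ± 24.5 FPM, log2 −0.68 ± 0.14) and Psme2 (114 ± 19.6 against 179 ± 31.3 FPM, log2 −0.65 ± 0.14). In samples, Psmd8 ranged from 109 to 170 FPM in NRK-52E and from 61.3 to 97.5 FPM in NRK-49F, without overlap.

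At pH 6.0 Psmd8 was 3.50-fold higher in NRK-52E (log2 1.81 ± 0.14 SE, adjusted p = 3.4e-11), with 253 to 368 FPM against 66.9 to 117 FPM. Psmc1 (log2 0.73 ± 0.14) and Psma5 (log2 0.70 ± 0.12) followed. Psmc3 (109 ± 14.8 against 202 ± 46.9 FPM, log2 −0.89 ± 0.15), Psme1 (297 ± 38.5 against 477.5 ± 109 FPM, log2 −0.68 ± 0.14) and Psmc5 (log2 −0.47 ± 0.17) were furthest below. The call of Psmc5 at pH 6.0 was lost without sample A042 (log2 −0.32). Psmd13, which was below NRK-49F at pH 7.4, was at 177 ± 30.5 against 161 ± 35.6 FPM at pH 6.0 and did not pass there, and Psmd3 passed in opposite directions at the 2 pH values (log2 −0.38 ± 0.11 at pH 7.4 and 0.50 ± 0.12 at pH 6.0).

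The interferon-induced subunits differed between the lines at pH 7.4 by more than any member did. Psmb8 was lower in NRK-52E by a log2 difference of −3.34 ± 0.19 SE at pH 7.4, Psmb9 by −2.28 ± 0.15 and Psmb10 by −1.98 ± 0.18, and all 3 were also lower at pH 6.0 (−3.13, −2.07 and −1.66). The constitutive counterparts Psmb5, Psmb6 and Psmb7 had differences of −0.13 ± 0.16, −0.13 ± 0.20 and 0.01 ± 0.15 at pH 7.4 and did not pass. The activator genes Psme1 and Psme2 were lower in NRK-52E at both pH values.

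Proteasome genes with other names were read as a list of 10. In NRK-52E 6 rose and none fell, and in NRK-49F 4 rose and none fell, with 0 lower in either line at an unadjusted p under 0.05 in edgeR or at an adjusted p under 0.05 in DESeq2. Of all genes tested, 24.7% rose and 36.6% fell in NRK-52E, and 14.5% rose and 14.4% fell in NRK-49F. Zfand2a, a stress-induced protein that binds the regulatory particle, rose most in NRK-52E (40.8 ± 1.52 to 125 ± 28.9 FPM, log2 1.61 ± 0.11 SE) and less in NRK-49F (32.0 ± 1.89 to 45.3 ± 3.44 FPM, log2 0.50 ± 0.11), the difference of the responses being 1.11 ± 0.16 (adjusted p = 5.1e-06). The ubiquitin receptor Adrm1 rose in NRK-52E (97.4 ± 17.3 to 149 ± 12.6 FPM, log2 0.61 ± 0.13) and not in NRK-49F (log2 0.05 ± 0.13). Its partner deubiquitinase Uchl5, named after its values were seen, rose by log2 1.07 ± 0.16 and 0.45 ± 0.17. Zfand5, an activator of the proteasome, rose most in NRK-49F (79.6 ± 3.76 to 135 ± 13.7 FPM, log2 0.76 ± 0.07). Pomp, the chaperone that completes the core, did not pass in either line (log2 0.38 ± 0.17 in NRK-52E, adjusted p = 0.059, and 0.29 ± 0.18 in NRK-49F), although it passed in NRK-52E without any of 5 single samples. Sem1, the smallest lid subunit, did not pass (−0.04 ± 0.17 and −0.07 ± 0.18).

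Genes linked to the control of proteasome expression formed a list of 13. It held Nfe2l1, Nfe2l2, Keap1, Mafg, Maff, Nfya, Nfyb, Nfyc, Ddi2, Ngly1, Sel1l, Syvn1 and Vcp. Not all are regulators of proteasome genes themselves. In NRK-52E 9 rose and 1 fell (median log2 0.58), against 24.7% and 36.6% of all genes. Sel1l, Syvn1, Vcp and Keap1, which also act outside proteasome control, were among those that rose. In NRK-49F 2 rose and 2 fell (median 0.00), against 14.5% and 14.4% of all genes. Syvn1, named after its values were seen, passed in opposite directions. It rose in NRK-52E (log2 0.58 ± 0.09 SE, edgeR adjusted p = 1.1e-05) and fell in NRK-49F (−0.37 ± 0.10, edgeR adjusted p = 0.0065). Nfe2l1 itself was at 502 ± 62.4 FPM in NRK-52E at pH 7.4 and 855 ± 30.3 FPM at pH 6.0 (log2 0.77 ± 0.08 SE, adjusted p = 1.8e-08), and at 444 ± 30.5 and 468 ± 40.2 FPM in NRK-49F (log2 0.08 ± 0.08). The difference of these responses was 0.69 ± 0.12 (adjusted p = 4.7e-05). Nfe2l2 did not pass in either line (log2 0.05 ± 0.06 and −0.06 ± 0.06). Sel1l, part of the complex that extracts proteins from the endoplasmic reticulum, rose most in NRK-52E (138 ± 26.6 to 386 ± 46.2 FPM, log2 1.48 ± 0.13), and the protease Ddi2, which cuts NFE2L1, rose by log2 0.70 ± 0.14 (named after its values were seen). Mafg, a dimer partner of NFE2L1, rose in both lines (log2 1.23 ± 0.13 and 0.79 ± 0.14). Nfyc, a subunit of the CCAAT-binding factor, fell in both, with log2 changes of −1.34 ± 0.12 and −0.66 ± 0.12. Of the other subunits of that factor, named after their values were seen, Nfya rose in NRK-52E (log2 0.67 ± 0.08, edgeR adjusted p = 3.4e-07) and did not pass in NRK-49F (−0.11 ± 0.09), and Nfyb did not pass in either line (0.12 ± 0.13 and 0.16 ± 0.14).

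Genes of ubiquitin supply and of the shuttles that carry ubiquitinated proteins formed a list of 11. In NRK-52E 5 rose and 1 fell, against 24.7% and 36.6% of all genes. In NRK-49F none rose and 1 fell, against 14.5% and 14.4% of all genes, with 0 higher there at an unadjusted p under 0.05 in edgeR or at an adjusted p under 0.05 in DESeq2. Ubqln1, a shuttle, rose in NRK-52E from 115 ± 5.66 to 195 ± 26.6 FPM (log2 0.77 ± 0.07 SE), and the ubiquitin-activating enzyme Uba1 fell there from 264 ± 13.9 to 191 ± 5.10 FPM (log2 −0.47 ± 0.06). Ufd1 passed narrowly as lower in NRK-49F (log2 −0.28 ± 0.11), a call lost without any of 14 single samples. These lists were described by their counts, and nothing is claimed as particular to them.

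Reads of some members may come from other loci. RefSeq places another gene over part of Psmd8, Psmd5, Psme1, Psma1, Psmc5 and 8 further members, and strand was not stated for the counting. It also names pseudogenes or copies of several members, among them Psmb3, Psmb6, Psmd8, Psma6, Psmc4, Psme1, Psme2 and Psmg4, and reads with several matches were counted, so the values of these members are uncertain to that extent. Psmd11, Psmd13, Psmd3, Psmd2 and Psmc3 had neither an overlapping gene nor a named copy.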

How the data were processed

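RNA of 23 samples of NRK-52E and NRK-49F cells was measured by poly(A) RNA-seq. The authors deposited raw counts per gene, made with HISAT2 2.1.0 and featureCounts, which counted fragments with several matches; strand is not stated. The submitters' processing notes name the rn6 genome build and the study's methods name rn7, so no coordinates were taken from the counts. The culture medium held NaHCO3 in amounts that differ between labels and methods. The table holds 13 further columns that match no label and were not used.

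The 30452 genes were filtered with filterByExpr (minimum count 10, minimum total 15), which left 14777, scaled by TMM and fitted with the quasi-likelihood test of edgeR 4.0.16 (R 4.3.3) on all 23 samples as 4 conditions. P-values were adjusted over all genes tested and 0.05 was the threshold. DESeq2 1.42.0 was an alternative, as were other scalings, no filter, each line alone, sample group as a term or taken singly, and each sample left out. A fit on protein-coding genes alone, a fit without 3 libraries and the summed ribosomal protein level as a covariate were added after the data were seen. The fit was tested on simulated data. Figures were drawn with matplotlib 3.10.9. The study calls its samples biological, and the labels do not say whether those of a group were separate cultures, so p-values measure the spread between these samples.

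Named were, by line and part of the complex, the called members with the largest rise and fall or else the largest change, the catalytic subunits, the activators and inhibitor, the 3 members furthest apart in each direction between lines, and in each comparison list the genes with the largest rise and fall plus Psmb8, Psmb9, Psmb10, Nfe2l1, Nfe2l2, Pomp, Adrm1 and Sem1. The members and lists were chosen with earlier results of these data known. Promoters are RefSeq sequences of GRCr8, which is neither build of the counts.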

Additional observations from a re-analysis of the deposited data

Results flagged for a closer look

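In 8 of 152 checks of the lowest and highest sample of a group, 1 sample stood far from the others, and chance flags about 1 in 20 groups. In NRK-52E at pH 7.4, sample A035 stood above the others for Psmb3 (206.1 FPM, others 126 to 155), Psmb5 (180.6 FPM, others 104 to 118), Psmb7 (206.9 FPM, others 116 to 147), Psmd13 (120.3 FPM, others 83.0 to 93.3) and the ubiquitin receptor Adrm1 (130.0 FPM, others 81.4 to 98.9). In NRK-49F at pH 7.4, sample A052 stood above the others for Psma1 (115.4 FPM, others 82.5 to 93.4) and Psmb8 (210.0 FPM, others 119 to 150.4). In NRK-49F at pH 6.0, sample A042 stood above the others for Psmd5 (81.23 FPM, others 59.2 to 63.6). These are the 3 libraries with the highest ribosomal protein sums of their groups, and the part of that in these values was not tested.

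By the test of the difference itself, 15 of the tested members and of the genes named by rule responded differently in the lines. Among all genes tested, 16.8% responded more strongly upwards in NRK-52E and 24.7% less. The log2 response in NRK-52E minus that in NRK-49F was 1.03 for Psmd8, 0.88 for Psmd3, 0.82 for Psmd13, 0.59 for Psmb3, 0.53 for Psmd2, 0.46 for Psmd7 and 0.38 for Psmd11 (edgeR adjusted p = 1.3e-04, 1.4e-04, 0.0018, 0.033, 0.0055, 0.012 and 0.0022). Outside the members it was 1.54 for Sel1l, 1.11 for Zfand2a, 0.75 for Ubqln1, 0.69 for Nfe2l1, 0.56 for Adrm1, −0.38 for Uba1, −0.51 for Zfand5 and −0.68 for Nfyc (edgeR adjusted p of 5.0e-07 for Sel1l to 0.016 for Adrm1). Nfya (0.77), Ddi2 (0.69) and Uchl5 (0.61), named after their values were seen, also passed (edgeR adjusted p = 2.2e-05, 0.0067 and 0.036). So did Maff (1.11), Syvn1 (0.95) and Vcp (0.37), with edgeR adjusted p = 2.7e-07, 6.0e-06 and 0.018. They are not among the 15, and the line markers were not counted.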

How the results depend on the processing

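The count of members that passed in NRK-52E was 18 and became 28 with each line fitted alone (30.5% of all genes higher and 31.8% lower), 33 in sample group 1 alone (29.5% and 31.8%), 35 without A035, A042 and A052 (31.3% and 33.1%, median log2 change of the members 0.47 in place of 0.26) and 30 with the ribosomal protein level as a covariate (28.6% and 39.7%). In NRK-49F the count was 4 and became 2 in sample group 4 alone (4.73% and 3.97%), 2 in sample group 6 alone (7.88% and 8.09%) and 14, of which 9 lower, with the covariate (18.2% and 19.5%), where Psmb5 turned from 0.05 to −0.14. The count for the difference of both responses was 7 and became 2 with sample groups 1 and 4 alone (8.11% and 13.2%), 20 without the 3 libraries (22.6% and 20.4%) and 26 with the covariate (21.5% and 28.7%). Between the lines at pH 7.4 the count was 23 and became 15 with sample groups 1 and 4 alone (30.7% and 30.5%) and 14 with groups 3 and 6 alone (29.3% and 29.8%). Leaving out each sample in turn gave 15 to 26 calls in NRK-52E (26 without A035, 15 without A023 or without A038), 3 to 6 in NRK-49F, 6 to 11 for the difference (11 without A042), 19 to 23 between the lines at pH 7.4 and 21 to 23 at pH 6.0. Single sample groups held 5 or 6 samples each. The cause of these shifts was not tested. The 219 other values of these counts and medians kept within their limits. Of the values of single named genes 2163 kept direction and side of the threshold, 48 lost it, 42 gained it and 1 turned. No member's fall in NRK-52E other than that of Psmc3 passed under any setting. No paired analysis was possible because the groups share no replicate numbers. The 41 tested members had at least 292 reads in every sample, and the effect of depth was not tested.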
